A study of Homo sapiens with 12 samples.

Results

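The replication-dependent histone genes encode the H1, H2A, H2B, H3 and H4 proteins that package newly made DNA. They were followed here in polyadenylated RNA of HT1080 cells, a human fibrosarcoma line. The members were the rows of the count table whose Ensembl identifier maps to a current symbol of the forms H1-1 to H1-5, H2AC, H2BC, H3C or H4C with a number. That rule found 66 of the 60669 gene rows. It uses symbols and no measured values, but it was chosen with earlier results of these data known. All cells stably expressed dCas9, a Cas9 that binds without cutting and is used for CRISPR interference, and were kept under blasticidin and puromycin. The tested line carried a guide RNA to an LTR8B element, a retroviral long terminal repeat, in the first intron of SP140. The control line carried a guide RNA to GFP. Interferon beta (IFNB) was given at 10 U/mL for 4 h. There were 4 libraries of LTR8B cells with IFNB, 4 of untreated LTR8B cells, 2 of GFP cells with IFNB and 2 of untreated GFP cells. The labels do not state that replicates came from separate cultures, and the p-values therefore cover only the spread among these libraries, which may be technical. The labels do not say whether a line was 1 clone or a pool, so an effect of the guide and a difference between 2 derived lines cannot be told apart.

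Replication-dependent histone genes lie in clusters, have no introns in their classical form and are switched on at the start of S phase through the coactivator NPAT. Their mature mRNAs are the known exception among animal mRNAs in that they end in a conserved stem-loop instead of a poly(A) tail. The stem-loop is bound by SLBP, and the U7 small nuclear RNA guides the cleavage just after it. Some of these genes also give polyadenylated transcripts that run past the stem-loop or are spliced to exons downstream, mostly outside S phase and in differentiated cells. A library made by polyA selection captures those forms and little of the stem-loop forms, so a level below is that of polyadenylated or residual RNA, and not that of the whole histone mRNA pool. In bulk RNA, fewer cells that express a gene and less of its RNA per cell cannot be told apart.

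The stem-loop was searched in the GENCODE release 29 transcript models of the members, of which 64 had a model. A stem-loop was found in 29 members, and 23 of these had a model running at least 100 bases past it. Of the other members, 35 had models with no stem-loop, and 32 of those had 1 model whose length was a multiple of 3, which is coding length. The sequences below are shown because they are the element at which the non-polyadenylated histone mRNAs end, read from the models of the members that the results turn on. Capitals mark the 16-base stem-loop core, with 5 flanking bases on each side in lower case, 5′ to 3′, as DNA letters.
H2BC15, unspliced model: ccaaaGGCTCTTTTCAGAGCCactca
H2BC15, spliced model: acaacGGCTCTTTTCAGAGCCaccta
H3C10: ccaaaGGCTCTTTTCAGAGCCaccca
H2AC6: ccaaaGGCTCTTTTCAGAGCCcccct
H2BC5: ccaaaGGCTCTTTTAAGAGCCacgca
H4C8: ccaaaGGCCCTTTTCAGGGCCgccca
H4C14 and H4C15: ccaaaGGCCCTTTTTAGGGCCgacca

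On hg38 these cores lay at chr6:27839090-27839105 and chr6:27865778-27865793 (plus strand) for the unspliced and spliced H2BC15 models. They lay at chr6:27810516-27810531 (plus) for H3C10, chr6:26124669-26124684 (plus) for H2AC6 and chr6:26158587-26158602 (plus) for H2BC5. The H4C8 core lay at chr6:26285131-26285146 (minus), that of H4C14 at chr1:149833032-149833047 (plus) and that of H4C15 at chr1:149860769-149860784 (minus). All 8 H4 genes with a stem-loop had GGCCC at the base of the 5′ arm, in 2 forms of the loop. All 21 H2A, H2B and H3 genes with one had GGCTC there. The most frequent core, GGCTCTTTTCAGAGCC, was shared by 15 members, among them H2BC15, H3C10 and H2AC6.

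Libraries held 12404270 to 28801579 counts, so a gene listed at 0 in a library may have had up to 3 counts, or 0.101 to 0.244 CPM (counts per 1000000, scaled by TMM factors here and below). Such floors cover counting error only. SP140, the gene whose intron the guide targets, was at 1.23 ± 0.289 CPM in LTR8B cells with IFNB (SD, n = 4) and 1.249 ± 0.570 CPM in untreated LTR8B cells (SD, n = 4). It was at 30.9 ± 1.56 CPM in GFP cells with IFNB (SD, n = 2) and 30.3 ± 0.728 CPM in untreated GFP cells (SD, n = 2). All 6 interferon-induced check genes, among them IFIT1, rose with IFNB in both lines (IFIT1 by a log2 fold change of 8.13 in LTR8B cells and 8.36 in GFP cells). Of the mesenchymal markers VIM averaged 3464 CPM, and of the markers of other cells PTPRC averaged 0.0193 CPM and EPCAM 0.0732 CPM. The epithelial keratin KRT8 averaged 265 CPM. Summed per library, the 10 mesenchymal markers were at 4583 to 5386 CPM. The 8 epithelial markers were at 358 to 445 CPM and the 8 haematopoietic markers at 91.1 to 134.4 CPM. The filter on low counts (below) kept 9, 3 and 3 of these genes, so some markers of other cells were expressed too.

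Polyadenylated histone RNA was dominated by a few genes. Summed over all members the mean level was 198.1 CPM, between 0.0179% and 0.0216% of all counts in a library. H2B genes supplied 97.1 CPM (49.0%), H2A genes 48.3 CPM (24.4%), H1 genes 31.04 CPM (15.7%), H4 genes 18.1 CPM (9.15%) and H3 genes 3.44 CPM (1.74%). The 10 highest members held 88.3% of the sum, and 17 members averaged at least 1 CPM. At the other end 19 members had no count in any library, which over the 12 libraries together allows up to 0.0119 CPM each. These were H1-3, H1-5, H2AC1, H2AC7, H2AC17, H2BC1, H2BC9, H2BC10, H2BC17, H2BC18, H3C7, H3C8, H3C11, H3C12, H3C13, H4C4, H4C6, H4C7 and H4C13. The bound takes reads as the authors' counting assigned them, and H2AC7 shares 98.1% of its 31-base words with the unnamed ENSG00000282988, which spans it and had 60 counts (mean 0.223 CPM). Likewise 86.4% of the words of H3C13 occur in other genes, and 48.8% in H3C14, which had 256 counts. Others of these members share smaller or larger parts of their words with other genes, so the bound is not sure for them. A further 3 members had under 10 counts in all, H3C4 with 4 and H1-1 and H2AC16 with 1 each, and all 31-base words of H3C4 also occur in ENSG00000282988. The filter on low counts left 26 members for testing, among 16393 genes tested.

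**Figure D1:**
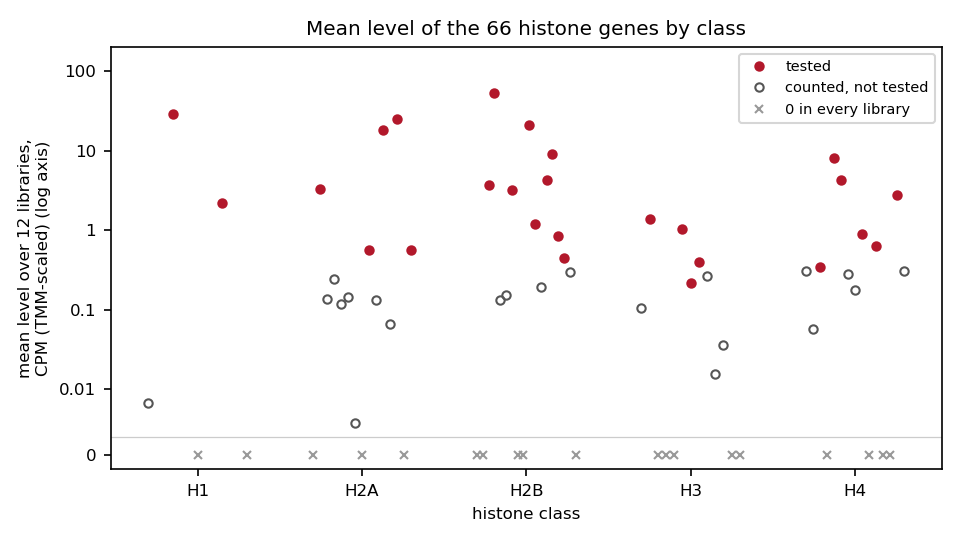
Mean level of each of the 66 genes over the 12 libraries, in TMM-scaled CPM on a log axis, by histone class. Filled points are the 26 genes tested, open points genes with counts that did not pass the filter, and crosses below the grey line the 19 genes with no count. H2BC12 is the top point at 52.8 CPM, and no H3 gene exceeds 1.37 CPM.

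H2BC12 had the highest mean level, 52.8 CPM, which was 26.65% of the sum. It ran from 50.7 to 58.8 CPM in LTR8B cells with IFNB, from 46.0 to 61.1 CPM in untreated LTR8B cells, at 47.9 and 52.3 CPM in GFP cells with IFNB, and at 51.6 and 55.5 CPM in untreated GFP cells, so all 4 groups overlapped. Its GENCODE release 29 model has 381 nt of coding length, whereas RefSeq lists the gene at chr6:27138293-27146858, a far longer span. Of that model's 31-base words, 86.3% also occur in other genes (74.4% in H2BC12L, which was listed at 0). H1-2, a linker histone that binds where DNA enters and leaves the nucleosome, came next at 28.8 CPM. H2AC6 averaged 24.97 CPM, H2BC21 20.7 CPM, H2AC25 18.1 CPM and H2BC5 9.17 CPM. H4C14 at 8.10 CPM, H2BC4 at 4.29 CPM, H4C15 at 4.25 CPM and H2BC11 at 3.72 CPM completed the 10 highest.

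Levels between genes are better compared per length of the longest model. On that scale the order was H2BC12 with 138.5 CPM per kb, H1-2 with 44.9, H2AC25 with 20.2, H2AC6 with 14.97, H2BC5 with 11.6 and H2BC21 with 9.44 CPM per kb. Models that hold only coding length, as for H2BC12 and H1-2, raise this figure against members whose models include long ends. The 23 members with a model running past the stem-loop summed to 96.3 CPM (48.6% of the sum), and 16 of them were tested. The 6 members whose stem-loop models all end near it summed to 10.3 CPM, of which H2BC5 supplied 9.17 CPM. H2BC5 also has a spliced model of 789 nt with no stem-loop, which ends at chr6:26171349, far downstream of its core. The 35 members with no stem-loop in a model summed to 90.7 CPM, of which H2BC12 and H1-2 supplied most, and 16 of them had no count. Members on chromosome 6 (54) summed to 143.5 CPM and the 11 on chromosome 1 to 54.3 CPM.

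The guide comparison asks whether histone RNA differed between cells with the LTR8B guide and cells with the GFP guide. The H2B gene H2BC15 was 5.21 times higher in LTR8B cells than in GFP cells, and passed with and without IFNB. The H4 gene H4C8 was 1.48 times higher in LTR8B cells and passed only when both treatments were averaged. Averaged over treatments, 2 of 26 tested members passed (both higher), against 2.14% of all tested genes in either direction and 1.15% higher. In untreated cells 1 of 26 passed, against 0.36% of all genes, and with IFNB 1 of 26, against 0.354%. The median averaged log2 fold change was 0.08 over the members and 0.0012 over all tested genes, with 20 members above 0 and 6 below. The share of all tested genes above 0 was not computed, and near-identical copies with split counts (below) are counted separately.

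H2BC15 (HIST1H2BN, ENSG00000233822.4) encodes an H2B protein in the large chromosome 6 cluster, at chr6:27838569-27839110 on the plus strand in RefSeq. It was at 5.05, 4.30, 3.66 and 4.19 CPM in LTR8B cells with IFNB, against 0.524 and 1.04 CPM in GFP cells with IFNB. It was at 3.87, 3.66, 4.86 and 5.55 CPM in untreated LTR8B cells, against 0.794 and 1.04 CPM in untreated GFP cells. Every LTR8B library was above every GFP library. The counts behind these levels were 45 to 145 in LTR8B libraries and 11 to 22 in GFP libraries.

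The log2 fold change of H2BC15, LTR8B over GFP, was 2.46 with IFNB (SE 0.29, adjusted p 1.45e-04) and 2.30 in untreated cells (SE 0.27, adjusted p 1.77e-04). Averaged over treatments it was 2.38 (SE 0.20, 95% interval 1.97 to 2.80, adjusted p 1.03e-06), a ratio of 5.21. All 20 alternative settings kept the call in each of these 3 comparisons, though those that sum copies of other genes leave its counts unchanged. With each library left out in turn, the averaged value ran from 2.18 to 2.67. H2BC15 supplied 4.19 ± 0.672% of the summed H2B level in LTR8B cells with IFNB (SD, n = 4) and 4.67 ± 0.990% in untreated LTR8B cells (SD, n = 4). It supplied 0.850 ± 0.403% in GFP cells with IFNB (SD, n = 2) and 0.996 ± 0.120% in untreated GFP cells (SD, n = 2).

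**Figure D2:**
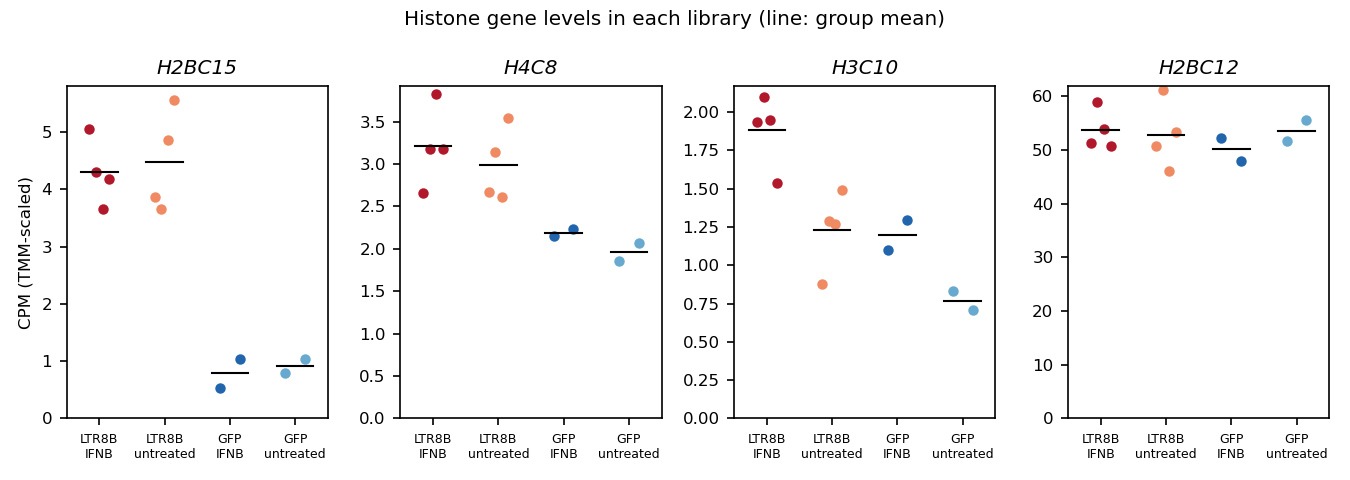
Level of H2BC15, H4C8, H3C10 and H2BC12 in every library, in TMM-scaled CPM on axes that start at 0; points are libraries and lines group means. For H2BC15 the 8 LTR8B libraries lie between 3.66 and 5.55 CPM and the 4 GFP libraries between 0.524 and 1.04 CPM, while the groups overlap for H2BC12.

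GENCODE release 29 holds 4 transcripts of H2BC15, of 432, 715, 1723 and 4137 nt. Which transcripts the authors' counts pool is not known. H3C2 and H3C3 have counts but no model in that release. The unspliced model of 1723 nt runs past the stem-loop by 377 bases. The others splice the coding exon to exons downstream, at chr6:27841564-27841661 and chr6:27852109-27855709, or to a short exon at chr6:27865744-27865798. That last exon lies within H2AC16 on the same strand and carries the spliced stem-loop shown above. Which transcript carried the difference was not tested, since the table gives 1 count per gene. Over the 31-base words of all these models, long downstream exons included, 4.04% occur in another member, 7.91% in a gene outside the members and 9.68% in either. The share within the coding exon alone was not computed. H2BC13 shares 20.3% of its words with H2BC15, and H2BC17 19.7%. Words were compared on the transcript strand only, so antisense overlap is not in these shares.

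H2AC15 overlaps the unspliced H2BC15 model on the opposite strand, and whether counting used strand is not stated in the labels, so reads from the overlap cannot be assigned to 1 of the pair. It did not pass the filter on low counts. It had 3, 5, 3 and 5 counts in LTR8B cells with IFNB and 4, 3, 9 and 2 in untreated LTR8B cells. It had 0 and 0 in GFP cells with IFNB and 0 and 2 in untreated GFP cells. Over all libraries of a line this was 0.209 CPM in LTR8B cells (exact Poisson interval 0.145 to 0.292) and 0.0225 CPM in GFP cells (0.00273 to 0.0814). Such intervals, here and below, cover counting error only and not the spread among libraries.

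Within 250 kb of H2BC15 the table held 37 annotated genes, of which 16 were members of the cluster including H2BC15. Besides H2BC15, 4 of these genes were tested and none passed in the averaged guide effect. H3C10, 27.7 kb away, had a log2 fold change of 0.66 (SE 0.20, adjusted p 0.0973). H4C12, 6.23 kb away, had -0.59 (SE 0.50, adjusted p 0.622), but 0.10 (SE 0.33, adjusted p 0.919) when summed with H4C11, whose sequence holds all of its 31-base words. ZNF165 had -0.10 (adjusted p 0.892) and the unnamed ENSG00000272009 had 0.02 (adjusted p 0.987). The other genes had too few counts to be tested, and 7 of them were members with counts. For 2 of these 7, H2AC15 and H2AC13, singled out after their values were seen, every LTR8B library was above every GFP library. H2AC13, 29.6 kb away, had 51 counts in LTR8B cells (0.314 CPM, exact Poisson interval 0.234 to 0.412) and 9 in GFP cells (0.101 CPM, 0.0464 to 0.192), and 63.8% of its 31-base words also occur in H2AC14. The lines overlapped for the other 5, H2BC13, H2AC14, H2BC14, H4C11 and H2AC16. Among all tested genes the lines were apart in 2.91%, and the share among genes below the low-count filter was not computed.

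H4C8 (HIST1H4H, ENSG00000158406.4) encodes histone H4 and lies at chr6:26285126-26285534 on the minus strand. It was at 2.65, 3.18, 3.82 and 3.18 CPM in LTR8B cells with IFNB, against 2.15 and 2.24 CPM in GFP cells with IFNB. It was at 2.67, 3.14, 2.61 and 3.55 CPM in untreated LTR8B cells, against 1.85 and 2.07 CPM in untreated GFP cells. No LTR8B library fell below a GFP library. The averaged log2 fold change was 0.57 (SE 0.14, 95% interval 0.27 to 0.87, adjusted p 0.0498), a ratio of 1.48. It passed neither in untreated cells (0.60, SE 0.20, adjusted p 0.272) nor with IFNB (0.54, SE 0.21, adjusted p 0.418). The averaged call rested on the threshold: it was lost with the replicate number as a block (0.49, adjusted p 0.205), under limma-voom (0.55, adjusted p 0.0684) and when 10 of the 12 libraries were left out in turn, with adjusted p among these up to 0.175 without replicate 1 of untreated GFP cells. No 31-base word of H4C8 occurs in another member.

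In untreated cells 6 of 26 members had no overlap between LTR8B and GFP libraries, against 19.6% of all tested genes, and with IFNB 5 of 26, against 19%. Over both treatments together, among the tested members only H2BC15 and H4C8 had every LTR8B library apart from every GFP library, 2 of 26 against 2.91% of all tested genes. H3C10 encodes histone H3 and was the nearest to the threshold among the rest. It was at 1.94, 2.10, 1.95 and 1.54 CPM in LTR8B cells with IFNB, against 1.10 and 1.29 CPM in GFP cells with IFNB. It was at 0.876, 1.29, 1.27 and 1.49 CPM in untreated LTR8B cells, against 0.831 and 0.707 CPM in untreated GFP cells. LTR8B exceeded GFP without overlap within each treatment, but its averaged value did not pass (given above). Of the other members with large values, H4C12 and H3C14 had averaged log2 fold changes of -0.59 and 0.56 (adjusted p 0.622 and 0.575), with SEs of 0.50 and 0.43. The sign for H4C12 turned when H4C11 was added to it (above), and H3C14 summed with H3C15 had 0.41 (SE 0.25, adjusted p 0.459).

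**Figure D3:**
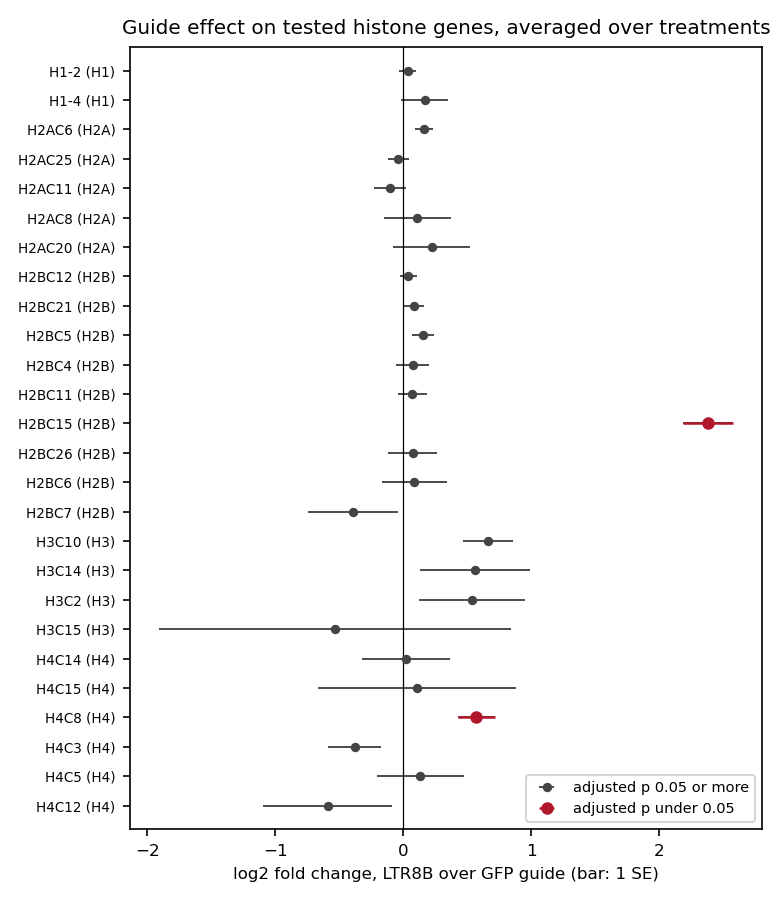
Averaged log2 fold change, LTR8B over GFP guide, of the 26 tested histone genes, ordered by class and then by mean level; bars are 1 SE. The 2 genes with adjusted p under 0.05 are red: H2BC15 at 2.38 and H4C8 at 0.57. The 5 members with the highest mean level lie between -0.04 and 0.16.

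None of the 10 highest members differed between guides by a value that passed the test. Averaged over treatments the log2 fold change was 0.04 for H2BC12 (SE 0.07), 0.03 for H1-2 (SE 0.07), 0.16 for H2AC6 (SE 0.07, adjusted p 0.254), 0.08 for H2BC21 (SE 0.08) and -0.04 for H2AC25 (SE 0.08). It was 0.15 for H2BC5 (SE 0.08, adjusted p 0.405), 0.07 for H2BC4 (SE 0.13) and 0.07 for H2BC11 (SE 0.11). The near-identical H4C14 and H4C15 had wide intervals, with 0.02 (SE 0.35, 95% interval -0.76 to 0.80) and 0.11 (SE 0.78, 95% interval -1.67 to 1.88), and their sum had 0.08 (SE 0.08, adjusted p 0.653). By class, 8 of 9 tested H2B members, 3 of 5 H2A members, both H1 members, 3 of 4 H3 members and 4 of 6 H4 members had values above 0. No such share was computed over all tested genes, and the near-identical H3 and H4 copies are not independent.

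The summed level of all members was 211.0 ± 5.42 CPM in LTR8B cells with IFNB (SD, n = 4) and 188.7 ± 2.86 CPM in GFP cells with IFNB (SD, n = 2). It was 194.4 ± 6.65 CPM in untreated LTR8B cells (SD, n = 4) and 188.8 ± 17.3 CPM in untreated GFP cells (SD, n = 2). The LTR8B libraries with IFNB, at 206.7 to 218.1 CPM, lay above both GFP libraries with IFNB, at 186.7 and 190.7 CPM. The untreated groups overlapped, with 188.3 to 202.3 CPM in LTR8B cells and 176.6 and 201.0 CPM in GFP cells. Leaving H2BC15 out, the sum was 206.7 CPM in LTR8B cells with IFNB and 187.9 CPM in GFP cells with IFNB, and 189.9 CPM in untreated LTR8B cells and 187.9 CPM in untreated GFP cells. Over the 12 libraries the coefficient of variation of the sum was 6.10%. By class, summed H3 RNA was 3.93 CPM in LTR8B cells with IFNB and 3.33 CPM in GFP cells with IFNB, and 3.49 CPM in untreated LTR8B cells and 2.46 CPM in untreated GFP cells.

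The treatment comparison asks whether IFNB changed histone RNA within 4 h. No member passed in LTR8B cells by edgeR's quasi-likelihood test, against 4.5% of all tested genes, and 4 members had an unadjusted p under 0.05. None passed in GFP cells either, against 3.2% of all tested genes, and 2 had an unadjusted p under 0.05. DESeq2 also called 0 members in both lines. The median log2 fold change over the members was 0.10 in LTR8B cells and 0.12 in GFP cells, against -0.01 over all tested genes in each line.

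The largest responses in LTR8B cells that did not pass were those of H4C12, H3C15 and H4C15, all of which have a near-identical copy. H4C12 was at 0.306, 0, 0.163 and 0 CPM in LTR8B cells with IFNB, against 0.599, 0.670, 0.368 and 0.463 CPM in untreated LTR8B cells. The groups did not overlap, and the log2 fold change was -2.15 (SE 0.64, adjusted p 0.0772). All 31-base words of H4C12 also occur in H4C11, which had counts only in the 2 LTR8B IFNB libraries where H4C12 had none, at 0.374 and 0.318 CPM. With both genes summed, the response was -0.77 (SE 0.38, adjusted p 0.417). Under limma-voom (adjusted p 0.0238), without the low-count filter (0.0062) and without replicate 1 of LTR8B IFNB cells (0.0109) the unsummed H4C12 passed.

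Among members without such a copy, H3C10 had a log2 fold change of 0.61 in LTR8B cells (SE 0.22, adjusted p 0.165) and 0.62 in GFP cells (SE 0.33, adjusted p 0.505), and its groups did not overlap in either line. H2BC21, an H2B gene of the chromosome 1 cluster, was at 22.5, 22.1, 26.4 and 21.6 CPM in LTR8B cells with IFNB, against 19.2, 18.3, 21.3 and 17.4 CPM in untreated LTR8B cells. The groups did not overlap. Its log2 fold change was 0.27 (SE 0.09, adjusted p 0.143), and 0.17 in GFP cells (SE 0.13, adjusted p 0.661). H1-2 was at 29.5 to 33.3 CPM in LTR8B cells with IFNB, against 26.4 to 28.8 CPM in untreated LTR8B cells, a log2 fold change of 0.18 (SE 0.08, adjusted p 0.323). In GFP cells it was at 25.98 and 28.5 CPM with IFNB, against 26.3 and 32.6 CPM untreated (-0.11, SE 0.11, adjusted p 0.745).

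H2BC15 and H4C8, which differed by guide, gave no response that passed. The log2 fold change of H2BC15 was -0.05 in LTR8B cells (SE 0.18, adjusted p 0.961) and -0.21 in GFP cells (SE 0.36, adjusted p 0.853). That of H4C8 was 0.09 in LTR8B cells (SE 0.16, adjusted p 0.917) and 0.16 in GFP cells (SE 0.24, adjusted p 0.831). In LTR8B cells 5 of 26 members had no overlap between IFNB and untreated libraries (H1-2, H2BC21, H3C10 and H4C3 higher, H4C12 lower), against 9.12% of all tested genes. In GFP cells, with 2 libraries a group, it was 10 of 26, against 44.5%.

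**Figure D4:**
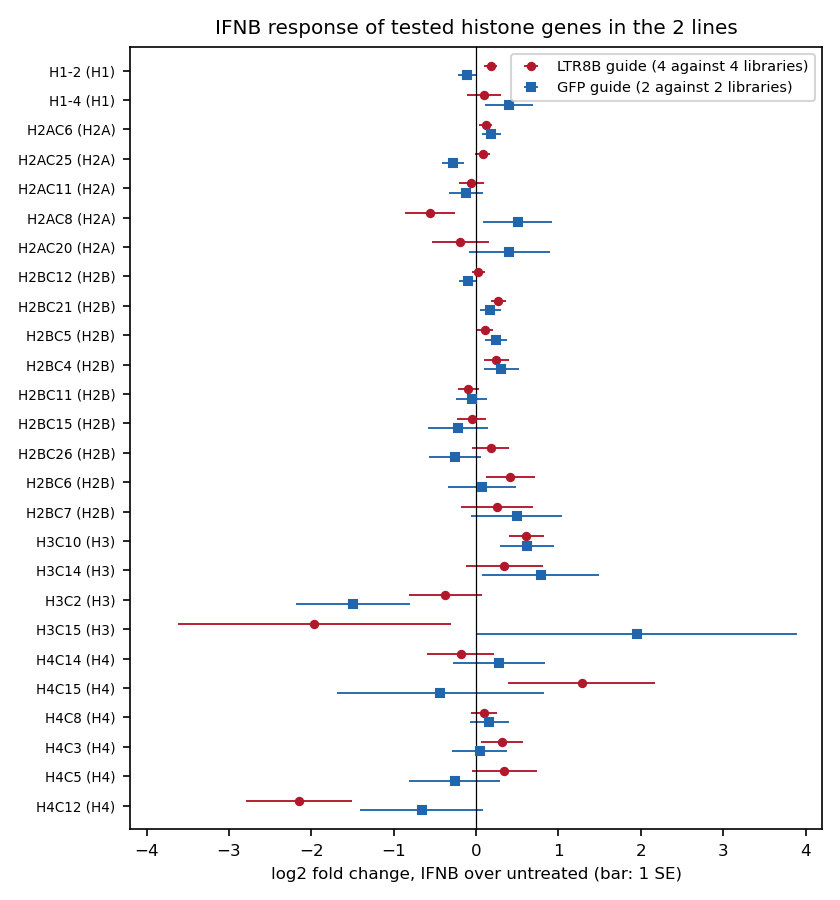
Log2 fold change, IFNB over untreated, of the 26 tested histone genes in LTR8B cells (circles) and GFP cells (squares), with bars of 1 SE, ordered by class and then by mean level. No point passed the test. H3C10 lies at 0.61 and 0.62 in the 2 lines, and the widest bars in each line belong to H3C15 and H4C15, which have near-identical copies.

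The interaction asks whether the IFNB response differed between the guides. By edgeR no member passed, 2 had an unadjusted p under 0.05 (H1-2 at 0.28 and H2AC25 at 0.36, adjusted p 0.996 each), and 0% of all tested genes passed. The share of all tested genes with an unadjusted p under 0.05 was not computed here either. DESeq2 and limma-voom also called 0 members. For H2BC15 the interaction was 0.16 (SE 0.40, 95% interval -0.69 to 1.01).

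Near-identical copies set a limit on several of these values, and it can be seen in how the counts were split. H4C14 and H4C15, 2 H4 genes of the chromosome 1 cluster, share 98.6% and 97.2% of their 31-base words. H4C14 had 194, 94, 134 and 109 counts and H4C15 78, 167, 43 and 184 counts in LTR8B cells with IFNB. In untreated LTR8B cells H4C14 had 100, 157, 301 and 227 counts and H4C15 150, 44, 39 and 0. The split thus moved between libraries of 1 group, and the coefficient of variation over the 12 libraries was 33.8% for H4C14 and 72.7% for H4C15 but 12.02% for their sum.

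The summed level of H4C14 and H4C15 was 13.9, 12.2, 14.4 and 15.5 CPM in LTR8B cells with IFNB, against 11.5, 10.4, 11.4 and 11.7 CPM in untreated LTR8B cells. All 4 IFNB libraries were above all 4 untreated ones. With the pair fitted as 1 gene, the log2 fold change in LTR8B cells was 0.31 (SE 0.09, adjusted p 0.0584), which did not pass. In GFP cells the sum was 11.7 and 12.4 CPM with IFNB, against 11.5 and 11.8 CPM untreated (0.05, SE 0.13, adjusted p 0.908). H4C15 fitted alone gave 1.28 in LTR8B cells (SE 0.90), and H4C14 alone -0.18 (SE 0.41).

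H3C14 and H3C15, a pair of H3 genes beside them, share all of their 31-base words. H3C15 was at 0 in 7 of the 12 libraries, and in the 5 libraries with counts it had exactly as many as H3C14, such as 14 and 14 or 18 and 18. Fitted alone H3C15 gave a response of -1.962 in LTR8B cells (SE 1.66) and 1.959 in GFP cells (SE 1.94). The sum of the pair gave 0.07 in LTR8B cells (SE 0.28, adjusted p 0.967) and 1.05 in GFP cells (SE 0.42, adjusted p 0.312). H4C14 overlaps H3C14, and H4C15 overlaps H3C15, on opposite strands.

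**Figure D5:**
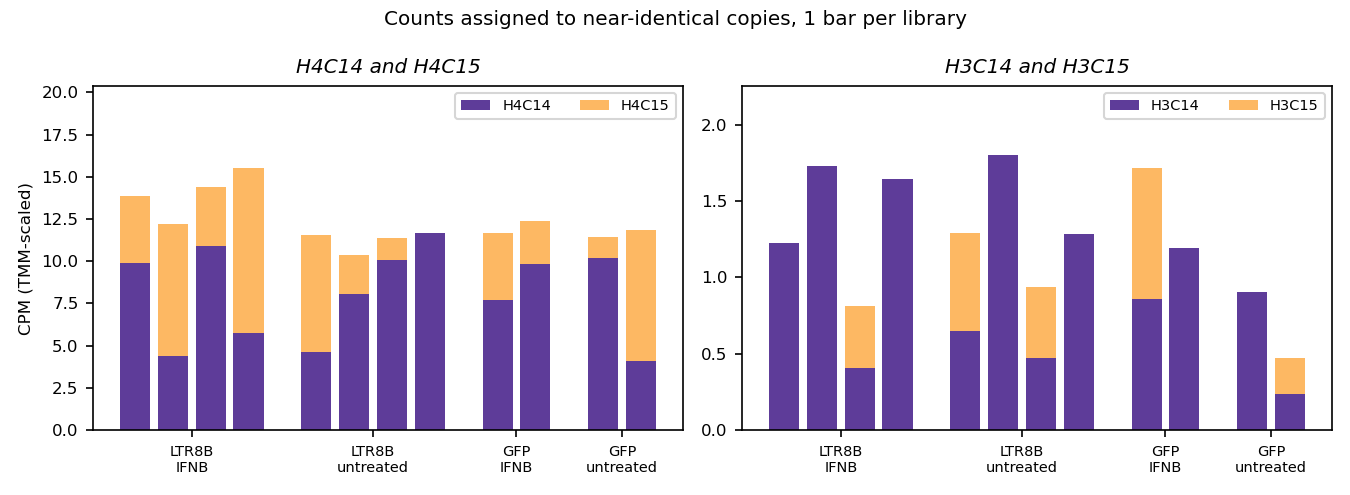
Level assigned to each copy of the pairs H4C14 with H4C15 and H3C14 with H3C15, stacked, in TMM-scaled CPM, 1 bar per library in replicate order within each group. The H4 bars stand at 10.4 to 15.5 CPM in all while the boundary inside them moves, and each H3 bar is either all H3C14 or split in equal parts.

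A further pair of the chromosome 1 cluster fell outside the rule and was noticed after its values were seen. The current genes H2AC18 and H2AC19 had no row under their present identifiers, but the table held rows for HIST2H2AA3 and HIST2H2AA4, which RefSeq lists as their older names. HIST2H2AA4 (chr1:149851061-149851624, plus strand, GENCODE release 29) had 4180 counts and HIST2H2AA3 37, all in replicate 1 of GFP IFNB cells. HIST2H2AA4 was at 22.7, 20.6, 20.2 and 17.0 CPM in LTR8B cells with IFNB, against 14.6, 17.7, 14.1 and 15.3 CPM in untreated LTR8B cells, and the groups overlapped. Its log2 fold change was 0.39 (SE 0.10, adjusted p 0.0258), a ratio of 1.31, and it passed. In GFP cells it was at 16.5 and 17.2 CPM with IFNB, against 13.04 and 14.7 CPM untreated (0.28, SE 0.14, adjusted p 0.464), with no interaction that passed (0.11, SE 0.17, adjusted p 0.996). The call in LTR8B cells was kept in 14 of 20 alternatives, with DESeq2, limma-voom and the replicate block among them. It was lost without any 1 of 6 LTR8B libraries, with adjusted p up to 0.139 without replicate 1 of LTR8B IFNB cells (0.32). Its averaged guide effect was 0.20 (SE 0.08, adjusted p 0.258).

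The replication-independent histone genes, which have introns and ordinary poly(A) tails and replace histones outside S phase, were at far higher levels. The 13 of 16 listed genes with a row of their own name summed to 1537 to 1678 CPM per library, led by H3-3B at 474 CPM, and 0 of the 10 tested passed in any contrast. The other 3 listed names, H4-16, H2BU1 and H2AW, are the members H4C16, H2BC26 and H2AC25. H3-3B had a log2 response to IFNB of 0.19 in LTR8B cells (adjusted p 0.122) and 0.09 in GFP cells (adjusted p 0.749).

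Of 37 listed genes of histone mRNA synthesis and processing, 36 were tested and 0 passed in any contrast. SLBP was at 81.7 CPM, with an averaged guide effect of -0.00439 (adjusted p 0.981), and NPAT at 33.7 CPM with 0.01 (adjusted p 0.968). The nearest to the threshold was ERI1, a nuclease that trims histone mRNA ends, with a response of 0.21 in LTR8B cells (adjusted p 0.266) and, in GFP cells, of 0.43 (adjusted p 0.055). Of the 34 listed S-phase and histone chaperone genes, HIRA, a chaperone that deposits H3.3, rose with IFNB in LTR8B cells (0.37, adjusted p 0.00101). In GFP cells HIRA had 0.33 (adjusted p 0.0562). No other gene of that list passed, and none passed for the guide. The list summed to 3683 to 4077 CPM per library in LTR8B cells and 3695 to 4177 CPM in GFP cells.

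The RefSeq promoter windows, 250 bases before to 50 after each start on GRCh38.p14, matched 61 members. CCAAT was in 51 of them (83.6%), against 35.7% of 27305 promoters. TATAAA was in 40 (65.6%, against 11.95%) and ATTTGCAT, the octamer read by OCT1, in 26 (42.6%, against 1.80%). The core of interferon response elements, searched as TTTC, any 2 bases and TTTC again, was in 5 (8.20%, against 3.65%), namely H2BC6, H2BC10, H2BC11, H3C10 and H3C13. Both strands were searched. The 250 bases upstream of H2BC12, the member with the highest level, are shown since they hold the first 3 motifs together (chr6:27146859-27147108, minus strand, motifs in capitals).
H2BC12 upstream: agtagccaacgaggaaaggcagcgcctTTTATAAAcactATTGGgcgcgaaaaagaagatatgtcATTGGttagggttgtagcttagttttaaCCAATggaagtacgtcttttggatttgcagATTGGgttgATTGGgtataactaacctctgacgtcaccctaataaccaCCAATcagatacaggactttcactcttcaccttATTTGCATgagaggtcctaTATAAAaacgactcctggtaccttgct

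The window of H2BC15 held CCAAT at -105 on the plus strand and at -133 and -69 on the minus strand, and none of the other motifs. That of H4C8 held none of the 4 motifs. The windows of H4C5, H4C14 and H4C15 likewise held none of CCAAT, the TATA motif and the octamer. A match describes letters in the window and not a bound site.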

How the data were processed

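PolyA-selected RNA was sequenced from 12 HT1080 libraries, prepared with a KAPA mRNA HyperPrep kit, per the labels' protocols. Adapters were of 2 index types, and the labels leave unsaid which went to which library, so no adapter batch was tested. The authors deposited whole-number counts per gene. The authors also deposited a normalized signal table, whose values were the counts divided by 1 factor per library (0.600 to 1.46) and which was used only for that check. The submitters' processing notes name Salmon 0.13.1, DESeq2 1.38.3 and hg38, with no role or order. The annotation release and the use of strand are not given in the sources used here. Salmon divides reads among similar transcripts, so counts of near-identical copies are estimates.

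Of 60669 identifiers, 60415 matched the table of gene names, and 66 of the 68 symbols that the rule takes had a row (H2AC18 and H2AC19 had none under their present identifiers). edgeR 4.0.16 in R 4.3.3 was fitted to all 12 libraries with TMM scaling, filterByExpr on the 4 groups, a robust quasi-likelihood model with 1 mean per group, and Benjamini-Hochberg adjustment over all 16393 tested genes at a threshold of 0.05. The groups' libraries share 1 estimate of the spread. An adjusted p without a named tool is edgeR's, SE is that of the log2 fold change (its size over the square root of F), and 95% intervals use the t quantile of the fit. The guide effect averaged over treatments uses the same libraries as the 2 effects it averages. CPM means counts per 1000000 scaled by TMM factors. No p was computed for a sum over members. The fit was tested on simulated data.

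Alternatives were RLE scaling, no low-count filter, limma-voom (limma 3.58.1), DESeq2 1.42.0, near-identical copies summed, the replicate number as a block, and each library left out in turn. Summing H4C11 with H4C12, and HIST2H2AA3 with HIST2H2AA4, was added after seeing the data. Sums of copies leave the counts of all other genes unchanged, so they test little for those genes. Replicate numbers were checked by the correlation of same-numbered libraries' deviations from their group means. Between LTR8B IFNB and LTR8B untreated it was 0.129 to 0.249 in all 4 pairs, so the numbers pair these groups. The main fit has no block for them. Its SEs and p-values, also those of the averaged guide effect, therefore take the paired LTR8B libraries as independent. Same-numbered libraries of different guides had correlations of -0.123 to -0.0954 untreated and -0.160 to -0.0836 with IFNB. Between GFP IFNB and GFP untreated it was 0.114 for the same numbers and -0.114 for different ones. In a group of 2 libraries the deviations mirror each other. The check therefore cannot decide whether the numbers pair GFP libraries with each other or with LTR8B libraries.

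Members given in full were those past the threshold in any contrast, the 10 with the highest mean level, and the 3 with the largest averaged guide effect and the 3 with the largest IFNB response in LTR8B cells among those that did not pass. Of each comparison list, genes past the threshold or nearest to it were named, with SLBP and NPAT always. The members and lists were chosen with earlier results of these data known. Sequences and positions came from GENCODE release 29 and RefSeq (GRCh38.p14). Shared 31-base words were counted over GENCODE transcripts. Tables were made in Python 3.11.15 (NumPy 2.4.6, pandas 2.3.3, SciPy 1.17.1) and figures with matplotlib 3.10.9.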

Additional observations from a re-analysis of the deposited data

Results flagged for a closer look

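H3C15 was at 0.407 CPM in replicate 3 of LTR8B IFNB cells, which stood apart from the other 3 libraries of that group, all listed at 0. The value rests on 5 counts, and H3C14, which shares all of its 31-base words, also had 5 counts there. Among 54 groups of 4 libraries examined this was the one that stood apart by the gap to its nearest neighbour. Chance alone flags about 1 in 20 groups where values vary freely. That rate does not apply to H3C15, which was listed either at 0 or with exactly the counts of H3C14.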

How the results depend on the processing

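H2BC15 kept its direction and its calls for the guide in all 20 alternatives (untreated 2.11 to 2.49, with IFNB 2.05 to 3.03, averaged 2.18 to 2.67 over the left-out libraries). The averaged guide effect called 2 members, but 1 under limma-voom, 1 with the replicate block and 1 to 2 without each library in turn, since H4C8 was lost. With the replicate block H4C8 had 0.49 (adjusted p 0.205), although whether the numbers pair the guides could not be decided. In the IFNB response of LTR8B cells, where the numbers do pair the groups, the replicate block changed no member's call (0 called). There H2BC21 was nearest (0.28, adjusted p 0.0575). H4C8 passed in 8 of 20 alternatives, among them the settings that only summed other genes and left its own counts unchanged. The IFNB response in LTR8B cells called 0 members, but 1 under limma-voom (H4C12), 2 without the low-count filter (H4C11 and H4C12) and 0 to 1 without each library in turn. H2AC15 was called for the averaged guide effect only without that filter (3.64, adjusted p 0.0127). Without H2BC12 the summed level was 157.4 CPM in LTR8B IFNB, 138.6 CPM in GFP IFNB, 141.5 CPM in LTR8B untreated and 135.2 CPM in GFP untreated cells. Of the named members' values, 86 that passed no threshold changed sign under an alternative, and no called value did. HIST2H2AA4 is given in the report. Over all genes the averaged guide effect called 351, against 181 with the replicate block, 590 by DESeq2, 775 without the filter and 93 to 461 without each library. In untreated cells it called 59, against 177 by DESeq2, 325 without the filter and 22 to 94 without each library, and with IFNB 58, against 120, 260 and 21 to 69. The IFNB responses called 737 in LTR8B and 524 in GFP cells, with 602 to 738 and 344 to 594 without each library. The interaction called 0, against 13 without the filter. GFP groups of 2 libraries and members under 1 CPM limit what could be seen.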

Other observations

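Among the marker lists, SNAI2, a mesenchymal transcription factor, was higher in LTR8B cells than in GFP cells (averaged log2 fold change 0.63, adjusted p 0.0051) and lower with IFNB than without in LTR8B cells (-0.48, adjusted p 0.0288) and in GFP cells (-0.70, adjusted p 0.0392). SPARC, a matrix protein, was lower in LTR8B cells than in GFP cells (-0.22, adjusted p 0.0289). CD68, from the haematopoietic list, rose with IFNB in LTR8B cells (0.30, adjusted p 0.0124) and had 0.27 in GFP cells (adjusted p 0.217). The summed haematopoietic list was 114.1 to 134.4 CPM in LTR8B cells with IFNB and 91.1 to 109.1 CPM in untreated LTR8B cells, while PTPRC stayed at or under 0.053 CPM in every library. The part of these genes in the histone results was not tested.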
